A study of Mus musculus with 6 samples.

Results

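The 38 genes described here are antiviral genes of the mouse that type I interferon is known to induce. They were taken by name from a list of such genes, and all 38 were found among the 23091 gene symbols of the deposited files. They comprise 4 sensors of viral RNA or DNA, 12 genes that act on RNA or nucleotides, 6 genes of ISG15 conjugation and ubiquitin ligation, 3 genes of the PARP family, 9 dynamin-like, lipid and membrane effectors, and 4 other interferon-induced genes. RNA was sequenced from Th9 cells, which are CD4 T cells differentiated towards the production of IL-9, and the design compared cells made without and with the inflammatory cytokine IL-1β.

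All 6 groups came from wild-type C57/Bl6j mice aged 7 weeks, whose spleen and nodes gave the naive CD4 T cells. In all of them, the cells were activated on plates coated with CD3 and CD28 antibodies, in the presence of IL-4 (20 ng/ml), TGFβ (2 ng/ml) and an antibody blocking interferon γ. In 3 groups 10 ng/ml IL-1β was added, and in the other 3 it was not. Each arm was taken after 1 h, after 3 days, or in vivo, in which case CD45.2 cells of day 3 were given to CD45.1 mice and recovered by sorting 1 week later. Each group is 1 library, so differences within a stage have no replicate check. Neither the number of mice behind a library nor the tissue that the injected cells were recovered from is stated in the labels. The labels name no further marker of the sort than this pair of CD45 alleles, and a CD45.1 host keeps cells of its own.

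Type I interferons are secreted proteins that bind the receptor made of Ifnar1 and Ifnar2 on almost every nucleated cell. The kinases Jak1 and Tyk2 then activate a complex of transcription factors, with Stat2 and Irf9 among them, that binds the interferon-stimulated response element, or ISRE, in the promoters of the target genes. The products of these genes detect viral nucleic acids, block translation, degrade viral RNA or hinder the budding of virus particles. Interferon γ acts through another element, the gamma-activated site, or GAS, and induces some of the same genes.

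The ISRE cores in the promoters of 4 members are shown because the element is the feature by which such genes are known to be induced, and because these members differed in the in vivo comparison described below. The sequences are from RefSeq (GRCm38.p6) and are written 5′ to 3′ on the strand of the gene, with the cores in capitals. A core is GAAANNGAAA, read on both strands, and cores that overlap are joined in 1 run of capitals. Ifit1 and Ifit3 were counted as higher with IL-1β in vivo, while Isg15 and Bst2 were not. The stretches are chr19:34640765-34640833 on the plus strand for Ifit1, chr19:34583353-34583436 on the plus strand for Ifit3, chr4:156200855-156200916 on the minus strand for Isg15 and chr8:71537567-71537622 on the minus strand for Bst2. All 4 lie upstream of the annotated start of the gene.
Ifit1: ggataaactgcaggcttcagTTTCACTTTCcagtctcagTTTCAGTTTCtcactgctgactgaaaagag
Ifit3: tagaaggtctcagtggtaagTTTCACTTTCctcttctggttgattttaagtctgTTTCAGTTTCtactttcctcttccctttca
Isg15: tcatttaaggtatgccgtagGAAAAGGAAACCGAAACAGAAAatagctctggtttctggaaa
Bst2: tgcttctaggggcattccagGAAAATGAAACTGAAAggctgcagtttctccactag

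In the Ifit1 and Ifit3 promoters 2 separate cores stand in the reverse orientation, whereas the 3 cores of Isg15 and the 2 cores of Bst2 overlap. RefSeq gave a window from 250 bases before to 50 bases after the start for 27 of the 38 members. A core was found in 11 of the 27 (40.7%), against 3.99% of all 27025 genes with a window and 3.44% of the windows. The 11 were Ddx58, Ifih1, Oas1a, Oas3, Ifit1, Ifit3, Eif2ak2, Isg15, Trim21, Rsad2 and Bst2. The shorter GAS pattern, TTCNNNGAA, was found in 8 of the 27 (29.6%), against 9.55% of all genes. A match is a description of the letters in the window. Of the members counted as higher in vivo, 4 had a window, and of these 2 held the ISRE core and 0 the GAS pattern. Of the 23 members with a window that were not counted, 9 held the ISRE core and 8 the GAS pattern.

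The values are FPKM (fragments per kilobase of transcript, scaled to sequencing depth), as deposited, each with a lower and an upper bound given by the authors, whose confidence level the file headers do not state. In the 2 libraries of 1 h, which were depleted of rRNA, 631 and 765 genes reached 5 FPKM, against 7313 to 8154 genes in the 4 poly(A) libraries of day 3 and in vivo. The low values of each file fell on steps, from which the worth of 1 fragment was estimated. The estimated depth was 427000 fragments at 1 h without IL-1β, 990000 fragments at 1 h with it, and 1290000 to 1630000 fragments in the poly(A) libraries. The 38 members together then held 77 fragments at 1 h without IL-1β and 230 with it, against 3558 to 4394 in the poly(A) libraries. For the median member 1 fragment was worth 0.721 and 0.311 FPKM in the 1 h libraries and 0.188 to 0.239 FPKM in the others. Members at 0 numbered 21 and 9 at 1 h and between 1 and 5 in the poly(A) libraries. A difference below a few fragments was not detectable at this depth, and a listed 0 is not shown to be an absence.

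The members differed widely in level, from 0 to 586 FPKM. The most abundant was Ly6e, a lipid-anchored surface protein that restricts the entry of some viruses, at 17.5 and 19.8 FPKM at 1 h, 466 and 497 FPKM at day 3, and 586 and 502 FPKM in vivo (without and with IL-1β in each pair). Ifi27l2a, a small hydrophobic protein, stood at 0 and 2.91 FPKM at 1 h, 257 and 228 FPKM at day 3, and 249 and 199 FPKM in vivo, but its FPKM lay above its own deposited upper bound in all 4 poly(A) libraries. Samhd1, which hydrolyses the nucleotides that viruses need for DNA synthesis, stood at 6.30 and 8.01 FPKM at 1 h, 102 and 84.0 FPKM at day 3, and 129 and 111 FPKM in vivo. At the other end Mx2, a dynamin-like GTPase, was listed at 0 in every library but that of 1 h with IL-1β (0.404 FPKM). Rsad2, the radical enzyme viperin, and its neighbour Cmpk2, a nucleotide kinase, did not exceed 0.758 and 1.18 FPKM in any library. The heat map of all values shows the few abundant members at day 3 and in vivo, and the many that were low there.

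**Figure D1:**
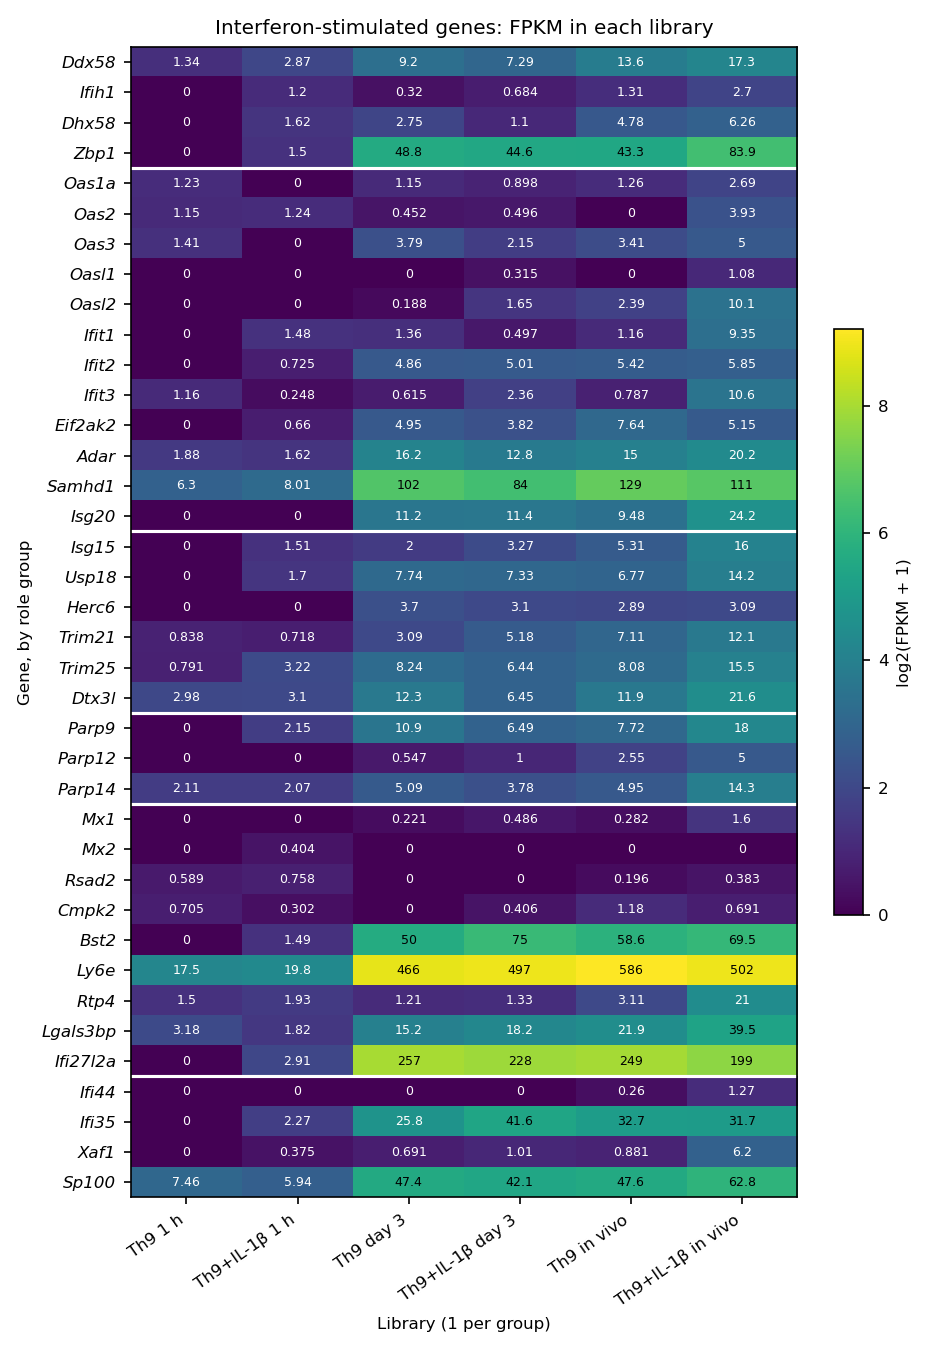
FPKM of the 38 genes (rows, by role group, in the order sensors, RNA and nucleotide effectors, ISG15 and ubiquitin genes, PARP family, membrane effectors, other) in the 6 libraries (columns, 1 per group), with the value printed in each cell and the colour giving log2(FPKM + 1). Ly6e was the highest gene in all 6 libraries, and 26 genes reached 5 FPKM in vivo with IL-1β, against 19 in vivo without it and 16 and 17 at day 3.

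In vivo, 7 of the 38 members were counted as higher in the library with IL-1β and 0 as lower. Across all 8639 genes compared at this stage 6.23% were higher and 3.48% lower by the same rule. The rule took up genes with 5 FPKM or more in either library, which 26 members had. It counted those whose FPKM + 1 differed by 2-fold or more with deposited intervals that did not touch. The 7 were Ifit1, Ifit3, Oasl2, Parp9, Parp14, Rtp4 and Xaf1. Of the other 31 members, 12 stayed under 5 FPKM in both libraries, 17 reached 5 FPKM but not a 2-fold ratio, and 2 (Isg15 and Isg20) reached 2-fold with overlapping intervals. The median log2 ratio over all 38 was 0.73, and 31 of the 38 had a ratio above 0. Over the 10925 genes with a mean of at least 1 FPKM in the poly(A) libraries the median was 0.04, and 52.9% had a ratio above 0. In these bulk libraries fewer cells of a type and less RNA per cell cannot be told apart.

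The sensors did not meet the rule. Ddx58 (RIG-I), which recognises viral RNA with a 5′ triphosphate, stood at 13.6 FPKM without and 17.3 FPKM with IL-1β in vivo, a log2 ratio of 0.33. Its relatives Ifih1 (MDA5), which binds long double-stranded RNA, and Dhx58 (LGP2), which modulates both, stood at 1.31 against 2.70 FPKM and at 4.78 against 6.26 FPKM. The intervals of these 3 genes overlapped. Zbp1, a sensor of left-handed nucleic acids, came nearest to the rule among the sensors, at 43.3 FPKM (interval 29.2 to 57.5) against 83.9 FPKM (65.2 to 103), a log2 ratio of 0.94. Its intervals lay apart, but the ratio stayed under 2-fold.

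The genes that act on RNA held 3 of the 7 counted members and the largest ratio. Ifit3, a relative of Ifit1, stood at 1.16 and 0.248 FPKM at 1 h and 0.615 and 2.36 FPKM at day 3. In vivo it stood at 0.787 and 10.6 FPKM (without and with IL-1β in each pair). The library in vivo with IL-1β was the only one above 2.36 FPKM. Its interval (6.43 to 14.6) lay above that without IL-1β (0 to 1.74), at a log2 ratio of 2.70, and the values correspond to about 24 against 2 fragments. Ifit1, which holds back translation of RNA that lacks the methylation of host caps, stood at 0 and 1.48 FPKM at 1 h, 1.36 and 0.497 FPKM at day 3, and 1.16 and 9.35 FPKM in vivo. The in vivo intervals were 0.263 to 2.11 and 6.16 to 12.3, the log2 ratio was 2.26, and the estimated fragments were 4 and 33. The third gene of this cluster, Ifit2, did not share the difference, at 5.42 against 5.85 FPKM in vivo (0.09).

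Ifit1, Ifit2 and Ifit3 lie close together on chromosome 19 (mm9). Ifit2 spans chr19:34625184-34651024, Ifit3 chr19:34658019-34663472 and Ifit1 chr19:34715379-34724499. The gaps are 6994 bases between Ifit2 and Ifit3 and 51906 bases between Ifit3 and Ifit1. An entry named I830012O16Rik lies between Ifit3 and Ifit1 and is a near copy of Ifit3, so fragments may be shared out between the copies. It stood at 0 FPKM in vivo without IL-1β and 2.49 FPKM with it, so it too had the higher value with IL-1β.

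Oasl2, a member of the oligoadenylate synthetase family whose relatives make the activator of RNase L, was at 0 FPKM in both 1 h libraries, 0.188 and 1.65 FPKM at day 3, and 2.39 and 10.1 FPKM in vivo. It was above its partner library at day 3 and in vivo. The in vivo intervals were 1.11 to 3.77 and 6.90 to 13.2, with about 10 and 42 fragments, and the log2 ratio was 1.71. Of the other members of the family, Oas2 was listed at 0 in vivo without IL-1β and stood at 3.93 FPKM (2.28 to 5.43) with it, under the minimum of 5 FPKM. Oas1a (1.26 against 2.69 FPKM), Oas3 (3.41 against 4.998 FPKM, just under the minimum) and Oasl1 (0 against 1.08 FPKM) were higher in value with IL-1β, with overlapping intervals. The Oas1 genes are close paralogs, so the share of fragments given to Oas1a is uncertain.

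The remaining effectors on RNA and nucleotides showed no counted difference. Isg20, an exonuclease, stood at 9.48 FPKM (2.11 to 16.9) against 24.2 FPKM (13.8 to 34.8), a log2 ratio of 1.27 with intervals that overlap. Adar, which edits adenosine in double-stranded RNA and overlaps the entry Chrnb2 by 8 bases, stood at 15.0 against 20.2 FPKM. Eif2ak2, the kinase PKR that stops translation on sensing double-stranded RNA, was lower in value with IL-1β, at 7.64 against 5.15 FPKM, and so was Samhd1.

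None of the 6 genes of ISG15 conjugation and ubiquitin ligation was counted, although all 6 ratios were above 0, with a median log2 ratio of 0.84. Isg15, the ubiquitin-like modifier itself, stood at 0 and 1.51 FPKM at 1 h, 2.00 and 3.27 FPKM at day 3, and 5.31 and 16.05 FPKM in vivo. The library with IL-1β was the higher one at each of the 3 stages. At 1 h this rested on about 0 and 1 fragments and at day 3 on about 2 and 4, with intervals not apart. The log2 ratio in vivo was 1.43, but the intervals (0.919 to 9.19 and 5.37 to 24.2) overlap and rest on about 5 and 16 fragments. Usp18, which removes ISG15 and dampens signalling at the receptor, stood at 6.77 against 14.2 FPKM (0.97). Trim25, the ubiquitin ligase that activates Ddx58, stood at 8.08 FPKM (6.12 to 10.1) against 15.5 FPKM (12.6 to 18.4), and Dtx3l, the partner of Parp9, at 11.9 FPKM (9.39 to 14.3) against 21.6 FPKM (18.1 to 25.1). The intervals of these last 2 lay apart at log2 ratios of 0.86 and 0.81, under the 2-fold limit. Trim21, the cytosolic antibody receptor, stood at 7.11 against 12.1 FPKM, and Herc6, the mouse ISG15 ligase, at 2.89 against 3.09 FPKM.

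Of the 3 PARP genes, which encode ADP-ribosyltransferases or their relatives, 2 were counted. Parp9 stood at 0 and 2.15 FPKM at 1 h, 10.9 and 6.49 FPKM at day 3, and 7.72 and 18.0 FPKM in vivo. In vivo its intervals were 5.21 to 10.2 and 14.3 to 21.8, the log2 ratio was 1.13, and the estimated fragments were 35 and 84. Parp14 stood at 2.11 and 2.07 FPKM at 1 h, 5.09 and 3.78 FPKM at day 3, and 4.95 and 14.3 FPKM in vivo. In vivo its intervals were 3.64 to 6.32 and 11.9 to 16.7, the log2 ratio was 1.36, and with about 47 and 140 fragments it was the best covered of the 7. Both genes had the lower value with IL-1β at day 3, with overlapping intervals, and the higher one in vivo. Parp12 stood at 2.55 against 4.997 FPKM in vivo and fell just short of the minimum.

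Parp9 and Dtx3l overlap by 558 bases on chromosome 16, where Dtx3l spans chr16:35926601-35939113 and Parp9 chr16:35938556-35972707 (mm9), and Parp14 spans chr16:35832964-35871468, 55132 bases from Dtx3l. The sources used here do not say whether fragments were assigned by strand, so reads from the overlap of Parp9 and Dtx3l cannot be told apart. Parp14, which does not overlap them, had a ratio of the same sign in vivo.

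Among the 9 membrane and lipid effectors 1 was counted. Rtp4, a chaperone that carries receptors to the cell surface, stood at 1.505 and 1.93 FPKM at 1 h, 1.21 and 1.33 FPKM at day 3, and 3.11 and 20.97 FPKM in vivo. The library in vivo with IL-1β stood apart from the other 5, which lay between 1.21 and 3.11 FPKM. Its in vivo intervals were 0.883 to 5.30 and 13.3 to 28.4, with about 7 and 51 fragments, and the log2 ratio was 2.42. Lgals3bp, a secreted galectin-binding glycoprotein, stood at 21.9 FPKM (15.4 to 28.2) against 39.5 FPKM (29.7 to 46.8), apart but under 2-fold (0.82). Bst2, the tetherin that holds budding virus on the cell, stood at 58.6 against 69.5 FPKM. Ly6e had its intervals apart in the other direction, at 586 FPKM (549 to 624) against 502 FPKM (467 to 537), a log2 ratio of -0.22. Mx1, of the dynamin-like GTPase family, stood at 0.282 against 1.60 FPKM, or about 1 against 7 fragments.

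Xaf1, a proapoptotic antagonist of inhibitor of apoptosis proteins, was counted among the remaining 4 genes. It stood at 0 and 0.375 FPKM at 1 h, 0.691 and 1.01 FPKM at day 3, and 0.881 and 6.196 FPKM in vivo. Its in vivo intervals were 0 to 1.60 and 3.65 to 8.59, with about 3 and 21 fragments, and the log2 ratio was 1.94. Sp100, a component of nuclear bodies, stood at 47.6 against 62.8 FPKM (0.39). Ifi35 stood at 32.7 against 31.7 FPKM, and Ifi44 at 0.260 against 1.27 FPKM. In the plot of the 7, the library in vivo with IL-1β also lay above both day 3 libraries, with intervals apart. That it lay above the library in vivo without IL-1β was set by the rule that chose the 7. All but Parp9 were under 5 FPKM in vivo without IL-1β and met the minimum only through the library with it.

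**Figure D2:**
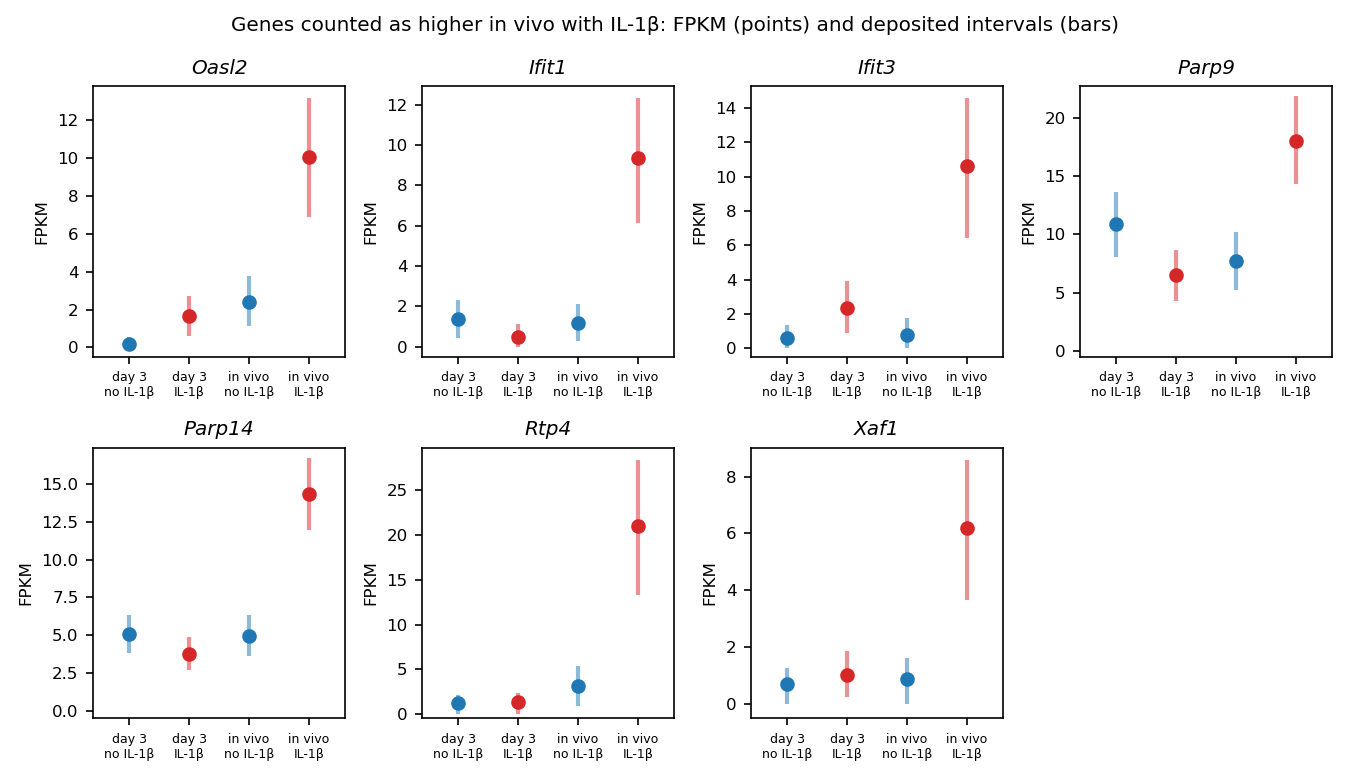
FPKM (points) and deposited intervals (bars) of the 7 genes counted as higher in vivo with IL-1β, in the 4 poly(A) libraries, 1 library per group. Each panel has its own linear scale; Rtp4 reached 20.97 FPKM in vivo with IL-1β against 1.21 to 3.11 FPKM in the other 3 libraries.

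The counted members were mostly low before transfer. Of the 15 members that had 5 FPKM or more in each day 3 library, 1 (Parp9) was counted in vivo, with 1.99% of the 6930 genes of this range higher and 3.62% lower. The other 23 members held the remaining 6. The median log2 ratio in vivo of the 15 was 0.41. Of the 7 members with the highest levels in both day 3 libraries, Ly6e, Ifi27l2a, Samhd1 and Ifi35 had ratios below 0 in vivo, and Bst2, Sp100 and Zbp1 had ratios above 0.

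Markers of several other cell types also had higher values in the library with IL-1β. The list of 10 epithelial markers summed to 6641 FPKM in vivo without IL-1β and 17266 FPKM with it, with 8 of 10 counted as higher, led by the surfactant gene Sftpc. The 9 markers of stroma and endothelium summed to 52.5 against 170 FPKM (6 of 9 higher, Dcn listed at 0 without IL-1β). The 20 myeloid markers summed to 1180 against 2621 FPKM, with 3 higher (Lyz1, Lyz2 and Csf1r) and Marco at 0 in both. Lyz2 alone stood at 521 against 1614 FPKM. Of the 20, 16 had ratios above 0 and 3 below: S100a8 (107 against 107 FPKM), S100a9 (117 against 116 FPKM) and Csf3r (9.96 against 5.53 FPKM). The 12 T cell markers summed to 2680 against 2593 FPKM with 0 counted. Markers of plasmacytoid dendritic cells, the main producers of type I interferon, summed to 25.1 against 52.0 FPKM, with Tcf4 counted as higher. Of these 6 genes 5 had ratios above 0, and the defining gene Siglech did not, at 0.963 against 0.315 FPKM. The largest values were those of Cox6a2 (9.78 against 28.1 FPKM, intervals overlapping) and Pacsin1 (12.9 against 14.6 FPKM). Pacsin1 already stood at 13.9 and 12.5 FPKM at day 3. Erythroid and platelet markers summed to 391 against 626 FPKM with Ppbp higher and Hbb-b1 at 0, B and plasma cell markers to 53.5 against 53.6 FPKM with Sdc1 higher and Cd79b lower, and CD8 and NK cell markers to 22.9 against 28.0 FPKM with Eomes higher and Klra8 at 0. The part of these cells in the ratios of the 38 members was not tested.

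**Figure D3:**
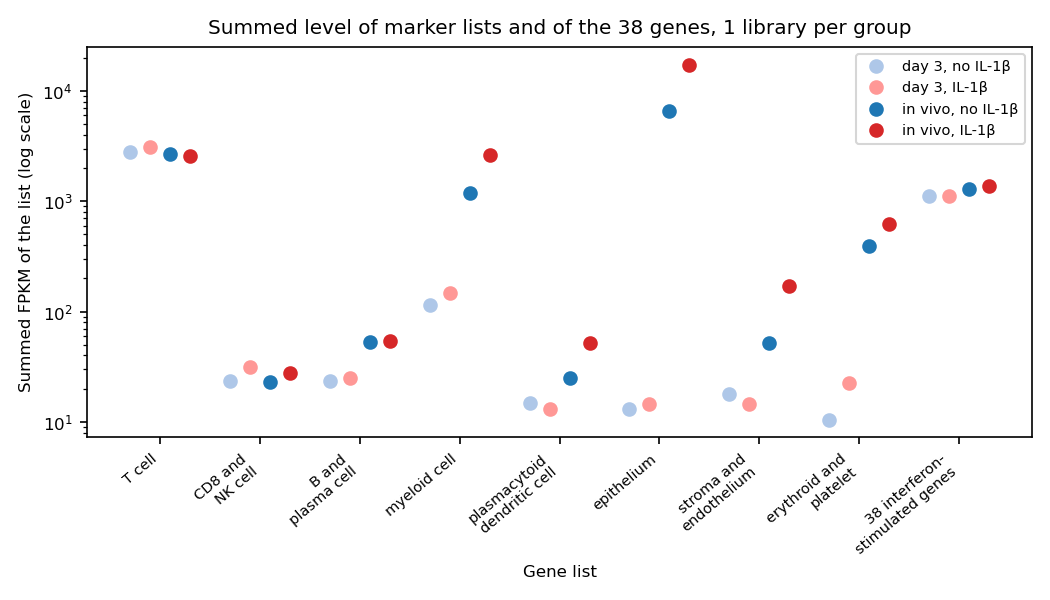
Summed FPKM (log scale) of 8 lists of cell type markers and of the 38 interferon-stimulated genes in the 4 poly(A) libraries, 1 point per library. The epithelial sum went from 13.2 and 14.5 FPKM at day 3 to 6641 and 17266 FPKM in vivo. The sum of the 38 genes lay between 1125 and 1375 FPKM in all 4 libraries. Most of that sum came from Ly6e, Ifi27l2a and Samhd1, each lower in value with IL-1β in vivo. It does not reflect the low members, and the median log2 ratio over the 38 in vivo was 0.73.

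At day 3, 0 of the 38 members were counted in either direction, and 18 of them reached 5 FPKM in a library of this stage. Of all 7962 genes compared 1.29% were higher and 2.15% lower, so 0 of 18 does not set the members apart. The median log2 ratio over the 38 was 0.00, and 18 of them had a ratio above 0. Over the genes with a mean of at least 1 FPKM it was -0.05, with 43.7% above 0. The intervals lay apart for 3 members: Oasl2 (0.188 against 1.65 FPKM), which stayed under 5 FPKM, and Samhd1 (102 against 84.0 FPKM) and Dtx3l (12.3 against 6.45 FPKM), which were lower in value with IL-1β. Ifit3 also had a ratio past 2-fold (1.06), at 0.615 against 2.36 FPKM, on about 2 and 6 fragments.

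At 1 h, 0 of the 38 members were counted, with 7.72% of 933 genes higher and 0.214% lower. Only 3 members, Ly6e, Samhd1 and Sp100, reached 5 FPKM in a library of this stage. The median log2 ratio over the 38 was 0.16 and 22 had a ratio above 0, beside a lower estimated depth without IL-1β. Intervals lay apart for Dhx58 (0 against 1.62 FPKM) and Ifit1 (0 against 1.48 FPKM), each on about 4 fragments in the library with IL-1β. The plot of ratios shows the spread of the 3 stages for each gene.

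**Figure D4:**
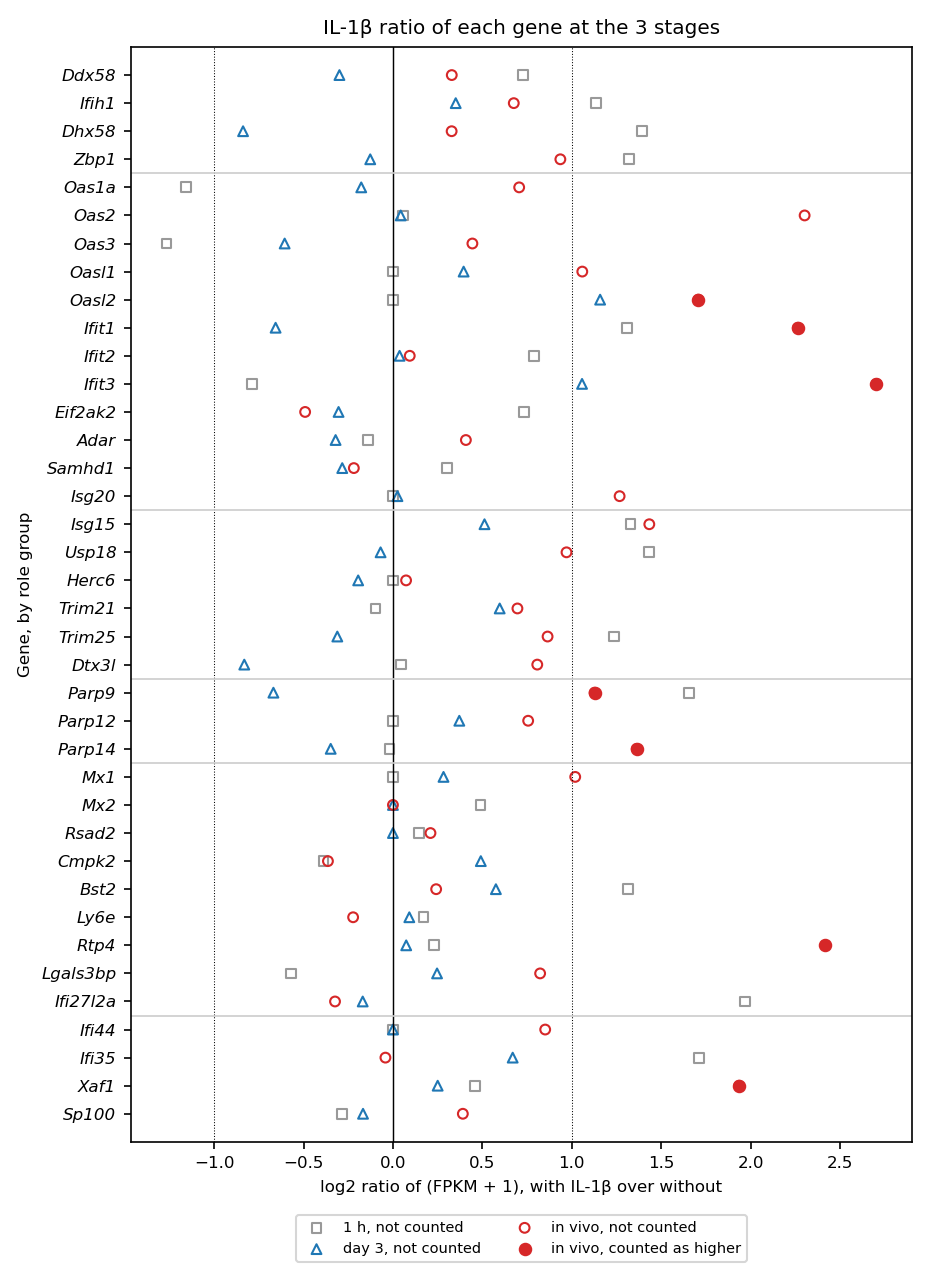
Log2 ratio of FPKM + 1, with IL-1β over without, of each of the 38 genes (rows, by role group) at 1 h (squares), day 3 (triangles) and in vivo (circles, filled where counted as higher); dotted lines mark a 2-fold ratio, and a gene at 0 in 1 library is placed by its value + 1. The 7 filled circles lie between 1.13 (Parp9) and 2.70 (Ifit3), and no gene was counted at 1 h or day 3.

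The difference between the stages was not tested, since each stage has 1 library per arm. The stages are the only repeat of the IL-1β contrast in the design, so limma 3.58.1 was fitted on log2(FPKM + 1) over all 6 libraries with stage as a covariate, which asks for a difference common to the stages and leaves 2 residual degrees of freedom. Of the 26 members tested 0 were called at a Benjamini-Hochberg adjusted p of 0.05, as were 0% of all 8946 genes in either direction, and the smallest adjusted p of a member in limma was 0.937. At an unadjusted p of 0.05 in limma, 2 members passed, Isg15 and Oasl2, against 320 genes, or 3.58% of all. Isg15 had the higher value with IL-1β at all 3 stages, at 1 h on about 0 and 1 fragments. Oasl2 had it at day 3 and in vivo and was listed at 0 in both 1 h libraries. Its entry into limma rested on the library in vivo with IL-1β, the only one where it reached 5 FPKM. Without the 1 h stage limma called 0 of 26 members, with 0.303% of 8901 genes called higher and 0.0786% lower. In that limma fit 5 members (Oasl2, Ifit3, Isg15, Rtp4 and Xaf1) had an unadjusted p under 0.05 against 7.73% of genes. All of these but Isg15 reached 5 FPKM only in vivo with IL-1β, so their selection is not independent of that library. The smallest adjusted p of a member there was that of Ifit3, 0.0853.

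From day 3 to in vivo, the 2 arms gave different counts. Without IL-1β, 0 of the 38 members were counted, and 20 of them reached 5 FPKM in either library. Of all 8126 genes compared 2.13% were higher and 0.665% lower, so 0 of 20 does not set the members apart. The median log2 ratio over the 38 was 0.14. With IL-1β, 13 of the 26 members compared were counted as higher and 0 as lower, with 12.0% of 8572 genes higher and 5.87% lower. The median over the 38 was 0.99 against 0.10 over the genes with a mean of at least 1 FPKM. This comparison shares the library in vivo with IL-1β with the in vivo comparison above, so the counts are not independent. The 13 hold all 7 genes named there and Ddx58, Dhx58, Trim21, Trim25, Dtx3l and Lgals3bp. Of the 13, Ifit1, Ifit3, Oasl2, Rtp4, Xaf1, Dhx58 and Parp14 met the minimum only through the library in vivo. The difference between the arms was not tested.

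For Rtp4 the log2 ratio of in vivo over day 3 was 3.24 with IL-1β and 0.90 without, and for Ifit1 it was 2.79 with IL-1β and -0.13 without. For Dhx58 the levels were 1.10 FPKM at day 3 and 6.26 FPKM in vivo with IL-1β (1.79), and 2.75 and 4.78 FPKM without (0.63). Dtx3l went from 6.45 to 21.6 FPKM with IL-1β (1.60) and stood at 12.3 and 11.9 FPKM without (-0.04). For Oasl2 the intervals lay apart in both arms, at 0.188 and 2.39 FPKM without IL-1β (1.51) and 1.65 and 10.1 FPKM with it (2.06), but without IL-1β it stayed under 5 FPKM. For Trim21 the ratios of the 2 arms were close, at 0.99 without and 1.09 with IL-1β. In the arm without IL-1β, in which 0 of the 20 members compared were counted, the summed epithelial markers stood at 13.2 FPKM at day 3 and 6641 FPKM in vivo. The summed myeloid markers stood at 114 and 1180 FPKM. With IL-1β they stood at 14.5 and 17266 FPKM, and at 148 and 2621 FPKM. The part of these cells in either arm was not tested.

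**Figure D5:**
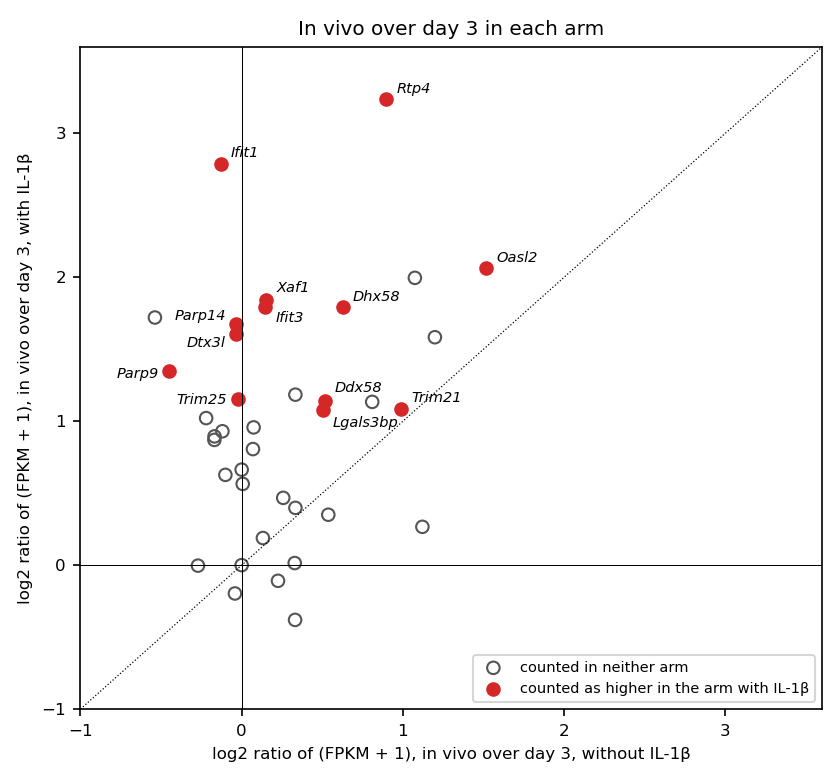
Log2 ratio of FPKM + 1, in vivo over day 3, of the 38 genes without IL-1β (x axis) and with IL-1β (y axis), 1 library per group; filled points were counted as higher in the arm with IL-1β, none was counted without it, and the dotted line marks equal ratios. Rtp4 lies at 0.90 and 3.24 and Ifit1 at -0.13 and 2.79.

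Between 1 h and day 3 the RNA selection changed as well, so no direction was read from these stages. By the same rule 15 of the 16 members compared without IL-1β were higher at day 3, and 15 of the 17 compared with it. Of all genes compared, 95.7% of 7689 without IL-1β and 95.5% of 7392 with it were higher. In each arm 0 members were lower, against 0.299% of genes without IL-1β and 0.595% with it.

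Other genes of the pathway were taken from a list of 93, of which 87 were in the files. In vivo 14 of the 57 compared were counted as higher with IL-1β and 0 as lower, against 6.23% and 3.48% of all genes. At day 3 it was 0 of 52, against 1.29% of all genes higher and 2.15% lower. At 1 h 1 of 17 was higher, against 7.72% of all genes. This was Psmb8, an immunoproteasome subunit, listed at 0 without IL-1β and at 11.1 FPKM with it. The 13 genes of type I interferons in the list, Ifnb1 among them, were listed at 0 in all 6 libraries. Of the receptor and its kinases, none was counted in vivo: Ifnar1 stood at 19.1 against 18.1 FPKM, Ifnar2 at 56.9 against 40.2 FPKM, Jak1 at 71.2 against 76.3 FPKM and Tyk2 at 17.2 against 19.5 FPKM.

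Of the transcription factors of the pathway, Irf9 stood at 17.0 and 20.7 FPKM at day 3 and 17.1 and 40.1 FPKM in vivo (1.18), and Irf7, which amplifies interferon production, at 1.67 and 6.45 FPKM at day 3 and 5.13 and 31.5 FPKM in vivo. Both were counted as higher with IL-1β in vivo. Stat2 was not, at 20.0 against 22.4 FPKM. The 7 negative regulators in the list, such as Socs1 (392 against 281 FPKM), gave 0 counted genes and a median log2 ratio of -0.31.

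Genes of interferon γ and its receptor were in the same list. Ifng, the type II interferon made by T cells and NK cells, stood at 44.0 and 78.3 FPKM at day 3 and 11.4 and 86.3 FPKM in vivo, a log2 ratio of 2.81. Ifngr1, a chain of its receptor, stood at 62.5 against 138 FPKM in vivo (1.13), and the other chain, Ifngr2, at 48.8 against 52.4 FPKM, not counted. Other counted genes were Ifi203 (1.90), the Schlafen genes Slfn1 (1.85), Slfn5 (1.65) and Slfn8 (1.89), the synthetase gene Oas1b (1.74), the interferon-inducible GTPase genes Ifi47 (1.89) and Igtp (1.16), Ube2l6 (2.26), the conjugating enzyme of ISG15, and Cxcl10, a chemokine listed at 0 without IL-1β and at 7.16 FPKM with it. From day 3 to in vivo with IL-1β, 14 of the 56 listed genes compared were higher and 1 was lower. Of all genes compared there, 12.0% were higher and 5.87% lower. Without IL-1β, 1 of 53 was higher and 1 lower, against 2.13% and 0.665% of all genes. The median log2 ratio of the 87 genes in vivo was 0.10, of which 13 interferon genes sit at 0.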

How the data were processed

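RNA-seq libraries of 6 groups, 1 library each, were used. The FPKM per gene and its bounds were made by the authors and used as deposited, per the file headers; TopHat and mouse build mm9 are named in the submitters' processing notes, and the sources used here name no quantification tool. Of the 23700 entries per file, 285 without an OK status were not used. FPKM was summed per symbol, and no member came from several entries.

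Members and lists were chosen with earlier results of these data known. Every member is accounted for; values in all libraries are given for those counted in an IL-1β comparison, and other genes are named when counted or when they are ligands, receptors or signalling genes. The count rule used a pseudocount of 1 FPKM. The result of a single listed gene is not reported here. Comparisons by size carry no p-value. Limma 3.58.1 (R 4.3.3) used genes with at least 5 FPKM in a library. Its run on simulated data used a large change, equal at every stage. It does not show whether smaller changes, or changes at a single stage, would be found. All else ran in Python 3.11.15 (pandas 2.3.3, numpy 2.4.6).

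The fragment estimate was chosen after seeing the data. It takes the smallest common step of FPKM times the longest GENCODE M21 transcript in genes of 1.5 to 6 kb. With it 54.1% to 59.7% of low values came out whole to a tolerance of 0.1, where random values give 20%. These are estimates and no count test was run on them. Alternatives were pseudocounts of 0.1 and 5, a minimum of 10 FPKM or none, intervals not used, 2 scalings, a length trend, entries of any status or only the largest per symbol, no stage covariate and left-out stages.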

Additional observations from a re-analysis of the deposited data

Results flagged for a closer look

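For 3 of the genes counted as higher in vivo, the library with IL-1β had the lower value at day 3 and the higher one in vivo. The log2 ratio of Ifit1 was -0.66 at day 3 and 2.26 in vivo, that of Parp9 was -0.67 and 1.13, and that of Parp14 was -0.35 and 1.36. With 1 library per arm and stage the difference between the stages was not tested. None of the 3 was counted at day 3, where the intervals of each overlapped. The Ifit1 values at day 3 rest on about 6 fragments without and 2 with IL-1β. At day 3 the log2 ratio also varied with transcript length. This trend ran from -0.45 to 0.61 at the members, against -0.12 to 0.03 in vivo. Its part in the ratios of these genes was not tested.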

How the results depend on the processing

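In vivo, 7 members were counted, with 6.23% of all genes higher. A pseudocount of 5 gave 4 members and 3.77% of genes, with Parp14 (0.96), Parp9 (0.86) and Xaf1 (0.93) under 2-fold. With 5 FPKM or more required in each day 3 library, 1 member and 1.99% of genes were counted as higher. The other settings gave 5 to 9 members and 5.40% to 8.18% of genes higher. Ifit3, Oasl2 and Rtp4 were counted under all 10 alternatives run for single genes, while Ifit1 and Xaf1 did not reach a minimum of 10 FPKM. With no minimum FPKM, 2 members were counted at 1 h (Dhx58 and Ifit1), with 4.36% of genes higher. At day 3 it was 1 (Oasl2), with 1.04% of genes. From day 3 to in vivo without IL-1β it was 3 (Oasl2, Parp12 and Cmpk2), with 2.91% of genes. With the minimum, 0 members were counted in each of these comparisons. From day 3 to in vivo without IL-1β, intervals not used gave 1 (Isg15), with 2.93% of genes higher. From day 3 to in vivo with IL-1β, a pseudocount of 5 gave 7 in place of 13, with 7.24% of genes higher in place of 12.0%. Between 1 h and day 3, scaling to the median ratio gave 2 and 3 (without and with IL-1β) in place of 15. Of all genes compared, 50.5% of 1539 and 57.4% of 1858 were then higher. Scaling to upper quartiles gave 4 and 3, with 58.2% of 1838 and 55.4% of 1770 genes higher. Over genes with 5 FPKM or more in both libraries, the median log2 ratio was 0.21 at 1 h (463 genes), 3.46 and 3.32 from 1 h to day 3 (580 and 686 genes), and within 0.1 of 0 elsewhere. In limma, 0 members were called under every alternative. The cause of these changes was not tested. No paired analysis was possible because each group is 1 library and the labels number no replicates, apart from the limma fit, whose stage covariate sets the arms against each other within a stage. With 1 library per group, the interval of each value covers that library and not the spread between mice.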
